A study of Gallus gallus with 5 samples.

Results

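The cells described here carry MEOX1 or TCF15 transcripts in chicken gastrulae grafted at HH4, and 782 of 4929 selected barcodes met the rule that defines them. A barcode stands for 1 droplet of a 3′ single-cell library, and its unique molecular identifiers (UMIs) count captured transcripts. Barcodes were selected at 2000 or more UMIs. A MEOX1/TCF15 barcode held 3 or more UMIs of MEOX1 and TCF15 together, fewer than 500 UMIs per 1000000 (CPM) of GSC plus CER1, fewer than 300 CPM of GNOT2 plus ADMP, and fewer than 3 SOX17 UMIs. The last 3 conditions remove prechordal, node and endoderm cells. These measured values chose the cells, so no test was made of those 7 genes between MEOX1/TCF15 barcodes and others.

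The libraries came from pools of grafts in which somite progenitor tissue from the primitive streak of eGFP-expressing donor embryos was placed at the matching position of wild-type hosts at HH4, the stage of the fully extended streak. The donors were HH8 embryos (HH8-HH4) or HH4 embryos (HH4-HH4), and the grafted region was dissected 3 hours or 0 hours after grafting. HH4 names the host stage at grafting, so cells of the 3 hr libraries were 3 hours older than that. Of each combination 1 library was used, and where 4 values follow each other they stand for HH8-HH4 at 3 hr and at 0 hr, then HH4-HH4 at 3 hr and at 0 hr. Only barcodes with 0 eGFP UMIs were taken from the HH8-HH4 libraries, so that these stand for the HH4 hosts, although a donor cell whose eGFP was not captured would be among them, while the HH4-HH4 libraries gave donor and host cells together. Each library pooled several embryos, no embryo can be told apart, and the 4 libraries differ in donor stage or time, so a p-value below measures how evenly a difference appeared over 4 unlike libraries.

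Paraxial mesoderm lies on both sides of the midline and is later cut into somites. Its cells leave the primitive streak, pass through a presomitic state marked by the bHLH factor MSGN1 and the T-box factor TBX6, and then switch on genes of the forming somite. MEOX1, a homeobox factor, and TCF15, the bHLH factor also called paraxis, belong to that later step. RDH10 and ALDH1A2 carry out the oxidation of retinol to retinaldehyde and of retinaldehyde to retinoic acid, a signal that opposes FGF and WNT in the posterior body. FOXC1 and FOXC2 are forkhead factors needed for somite formation in the mouse.

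The MEOX1/TCF15 barcodes numbered 23 of 232, 253 of 1726, 111 of 273 and 395 of 2698 selected barcodes. That is 9.91% of HH8-HH4 3 hr barcodes (exact 95% interval 6.39 to 14.5%), 14.7% of HH8-HH4 0 hr barcodes (13.0 to 16.4%), 40.7% of HH4-HH4 3 hr barcodes (34.8 to 46.7%) and 14.6% of HH4-HH4 0 hr barcodes (13.3 to 16.0%). The intervals cover counting error only, and with 1 library a condition the shares carry no test between conditions. The HH4-HH4 3 hr library stood far above the other libraries. It was also the deepest, with a median of 40651 UMIs in its MEOX1/TCF15 barcodes, against 22712 in HH8-HH4 3 hr, 9084 in HH8-HH4 0 hr and 14166 in HH4-HH4 0 hr. When each barcode was thinned to 2000 UMIs and 1 UMI of MEOX1 or TCF15 was asked for, the shares were 6.03%, 15.1%, 20.9% and 11.7%. The limits on the other rule genes were still applied to the full counts, so depth was made equal for MEOX1 and TCF15 only. After thinning the HH4-HH4 3 hr library still had the highest share, with a smaller lead. Within a library the MEOX1/TCF15 barcodes were as deep as the remaining selected barcodes, whose median was 20353, 9037, 40910 and 14392 UMIs.

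**Figure D1:**
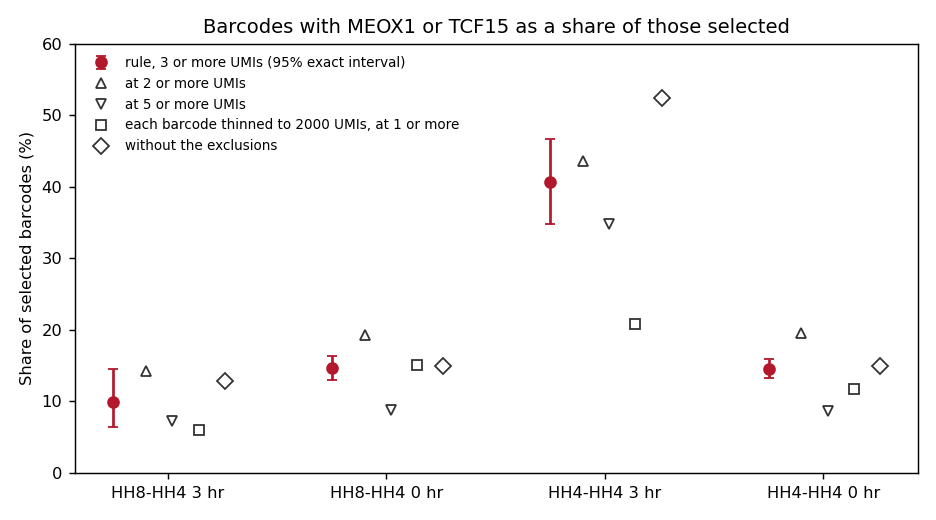
The vertical axis gives MEOX1/TCF15 barcodes as a percentage of selected barcodes in each of 4 libraries, with filled points for the rule and bars for the exact 95% binomial interval, and open symbols for other thresholds, for thinned barcodes and for the rule without its exclusions. The HH4-HH4 3 hr library is highest under each of these settings, at 40.7% by the rule and 20.9% after thinning.

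Before the exclusions 30, 257, 143 and 402 barcodes reached 3 UMIs of MEOX1 and TCF15. The GNOT2 and ADMP limit removed 22 barcodes of HH4-HH4 3 hr and 1 to 4 of each other library, and the SOX17 limit removed 12 of HH4-HH4 3 hr and 0 to 2 of each other library. GSC and CER1 removed 0 to 4 barcodes a library. The 3 limits overlap, and a barcode can fail several. At the edge of the rule the 104 HH4-HH4 0 hr barcodes with 3 UMIs of MEOX1 and TCF15 had 1895 CPM of MSGN1 and 68.6 of FOXC2, and the 133 barcodes with 2 UMIs had 1729 and 47.5. The 57 HH8-HH4 0 hr barcodes with 3 UMIs had 587 CPM of ALDH1A2, and the 80 with 2 UMIs had 449. The 3 hr libraries had few barcodes at the edge and ran the other way in some genes. In HH8-HH4 3 hr ALDH1A2 was at 22.4 CPM in 6 barcodes with 3 UMIs and at 87.0 in 10 with 2 UMIs, and in HH4-HH4 3 hr FOXC2 was at 29.0 in 8 barcodes with 3 UMIs and at 34.1 in 8 with 2 UMIs.

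Both rule genes were usually found together. A total of 620 MEOX1/TCF15 barcodes (79.3%) held UMIs of both genes, 78 (9.97%) held MEOX1 alone and 84 (10.7%) held TCF15 alone. Over the MEOX1/TCF15 barcodes MEOX1 was at 142, 514, 305 and 280 CPM, and TCF15 at 187, 327, 220 and 190. MEOX1 exceeded TCF15 in every library but HH8-HH4 3 hr. The median barcode held 7, 6, 13 and 5 UMIs of the pair, and the highest barcode, in HH4-HH4 3 hr, held 193.

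The barcodes with TCF15 alone differed from those with both genes in genes outside the rule, described here without a test because the classes are cut from the rule genes. The classes were not matched for the sum of MEOX1 and TCF15 UMIs. At the edge of the rule, with 3 UMIs of the pair, FOXC2 was at 61.7, 51.1, 29.0 and 68.6 CPM. The part of that sum in the differences below was not tested. FOXC2 was at 78.3, 43.7, 9.04 and 67.4 CPM in the TCF15-alone barcodes, against 103, 122, 112 and 121 in those with both genes. WNT11 was lower in TCF15-alone barcodes of all 4 libraries as well, at 6.02, 10.9, 16.8 and 8.99 CPM against 32.9, 61.1, 43.4 and 37.8. CDX2, a homeobox factor of the posterior body, ran the other way in all libraries but HH8-HH4 3 hr, with 168, 656 and 108 CPM in their TCF15-alone barcodes, against 103, 276 and 36.0 in those with both genes. In HH8-HH4 3 hr, where 6 barcodes had TCF15 alone, CDX2 was at 30.1 in them and 63.7 in those with both. The TCF15-alone barcodes had median depths of 20058, 8986, 34133 and 14770 UMIs, against 25450, 9188, 42642 and 14198. MEOX1-alone barcodes numbered 0, 32, 2 and 44. In the libraries that held them FOXC2 was at 73.7, 99.8 and 88.6 CPM in these barcodes and WNT11 at 26.8, 0 and 22.5. Both genes were thus below their level in barcodes with both rule genes, so their lower level was not particular to TCF15-alone barcodes. CDX2 was at 67, 125 and 27.4 in MEOX1-alone barcodes, also below those with both, so only TCF15-alone barcodes were higher in CDX2 there.

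Against all other selected barcodes, 428 of 4675 tested genes rose in MEOX1/TCF15 barcodes (9.16%) and 412 fell (8.81%). These are the background rates for the gene lists below, and the median log2 difference over all tested genes was 0.00152. UMIs were summed per library over the 782 MEOX1/TCF15 barcodes and the 4147 others, and tested with edgeR's quasi-likelihood F test with the library as a block, at a Benjamini-Hochberg adjusted p under 0.05. The other barcodes include 1726 that fail the exclusions themselves, so falls of node, prechordal and endoderm genes are in part set by the rule. For the named genes past the threshold, values against the 2421 that pass are given where the call, the direction or the log2 difference itself (over 1.5 times) changed. That repeat gave no value for SLURP1, PLEK2, FZD5 and RBP4A. Log2 differences changed in both directions with the calls kept, to 0.51 for DLL1, 0.62 for NOTCH1, 0.34 for LFNG, -1.05 for HES4, 0.32 for RSPO3, -1.11 for WNT8A, -0.78 for WNT5B, -0.87 for ETV1, 3.08 for FOXC1, 0.67 for LMO2, 0.47 for TMSB4X, -1.99 for HOXB8, -1.99 for NOTO, -1.18 for EOMES and 1.77 for SST. Smaller changes of a log2 difference can still be large as folds. ALDH1A2 went from 3.27 to 2.51, MSGN1 from 2.45 to 1.71 and TWIST1 from 2.77 to 3.53. Without HH8-HH4 0 hr the counts were 267 higher and 244 lower, and without HH4-HH4 0 hr 272 and 248.

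A closer partner was the MSGN1 mesoderm without MEOX1 or TCF15, meaning barcodes with 3 or more MSGN1 UMIs, 0 UMIs of MEOX1 and TCF15, and the same exclusions. It held 34, 253, 19 and 405 barcodes. Here 234 of 4346 genes rose in MEOX1/TCF15 barcodes (5.38%) and 200 fell (4.60%), and without HH4-HH4 0 hr the counts were 126 and 105. Without HH8-HH4 0 hr they were 149 and 129. The requirement of 0 MEOX1 and TCF15 UMIs favours shallow barcodes, and the median was 7040, 8163, 33734 and 14312 UMIs.

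The paraxial mesoderm factors were the gene list that rose most evenly. Of 11 tested members 9 rose against all other barcodes and 1 fell, with a median log2 difference of 1.44, and of 8 tested members 7 rose against MSGN1 mesoderm and 0 fell, with a median of 1.75. MSGN1 itself was at 1938, 2780, 2267 and 1963 CPM in MEOX1/TCF15 barcodes, against 256, 617, 323 and 480 in the others (log2 difference 2.45 ± 0.132 SE, edgeR adjusted p = 4.04e-06). The groups did not overlap across the libraries. It was also above the 724, 1695, 605 and 1129 CPM of the MSGN1 mesoderm, whose members were chosen for MSGN1, so that pair is given without a test. The presomitic factor was thus highest in the barcodes that also carried the somite factors, and 23 of 23, 251 of 253, 109 of 111 and 385 of 395 MEOX1/TCF15 barcodes held it.

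FOXC2 stood at a nearly constant level, 96.6, 107, 96.4 and 114 CPM in MEOX1/TCF15 barcodes. The others had 21.2, 12.3, 15.6 and 10.7 (log2 difference 2.92 ± 0.182 SE, edgeR adjusted p = 1.03e-05), and MSGN1 mesoderm had 14.8, 13.8, 2.61 and 12.2 (3.22 ± 0.166 SE, edgeR adjusted p = 6.58e-08). Every MEOX1/TCF15 value lay above every value of the other groups. In MSGN1 mesoderm FOXC2 was near its level in all other barcodes, and below it in HH4-HH4 3 hr. A FOXC2 UMI was found in 87.0%, 49.4%, 74.8% and 67.6% of MEOX1/TCF15 barcodes, and in 8.82%, 8.30%, 10.5% and 12.3% of MSGN1 mesoderm barcodes. Epiblast barcodes carry 3 or more SOX3 UMIs and 0 of MSGN1 and TBX6, and numbered 9, 156, 13 and 179. A FOXC2 UMI was found in 0%, 0%, 7.69% and 0.559% of them. Asking for 0 MSGN1 and TBX6 UMIs tends to remove barcodes with free mesoderm RNA, so epiblast shares cannot measure that background. Barcodes with 5000 or more UMIs were also thinned to 5000 and shallower ones left out. That kept 23, 248, 111 and 394 MEOX1/TCF15 barcodes and 23, 232, 16 and 389 of MSGN1 mesoderm. The FOXC2 shares were then 39.1%, 35.9%, 28.8% and 43.7% in MEOX1/TCF15 barcodes and 8.70%, 5.17%, 6.25% and 5.66% in MSGN1 mesoderm.

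FOXC1 and TWIST1, a bHLH factor of mesenchyme, were scarcer and showed the largest differences from MSGN1 mesoderm among these factors. That group was chosen for MSGN1. Within MEOX1/TCF15 barcodes, split by MSGN1 below, both genes were lower where MSGN1 was high (log2 -1.11 for FOXC1 and -3.26 for TWIST1). The part of the choice in the differences was not tested. FOXC1 had 27.4, 8.67, 22.4 and 25.9 CPM in MEOX1/TCF15 barcodes and 2.47, 0.893, 1.31 and 1.30 in MSGN1 mesoderm (log2 difference 4.05 ± 0.294 SE, edgeR adjusted p = 1.58e-06). Against all other barcodes FOXC1 was higher by 1.44 on the log2 scale (edgeR adjusted p = 0.0219). This call was lost without HH4-HH4 0 hr (log2 1.22, adjusted p = 0.101) or without HH8-HH4 3 hr (1.53, 0.0577). With 0 eGFP UMIs asked for in all libraries it was lost too (1.34, 0.102). In HH8-HH4 0 hr a FOXC1 UMI was in 7.11% of MEOX1/TCF15 barcodes and 6.79% of the others. With thinning as for FOXC2 these shares were 2.02% and 4.32%. In the other libraries the share was higher in MEOX1/TCF15 barcodes, with and without thinning. TWIST1 had 12.9, 7.85, 30.5 and 19.5 CPM, against 0, 0, 0 and 0.975 in MSGN1 mesoderm (log2 4.74 ± 0.392 SE, edgeR adjusted p = 4.55e-06). The TWIST1 signal came from few cells. A TWIST1 UMI was seen in 2 of 23, 13 of 253, 21 of 111 and 32 of 395 MEOX1/TCF15 barcodes, against 0 of 34, 0 of 253, 0 of 19 and 4 of 405 in MSGN1 mesoderm. In epiblast barcodes it was 0 of 9, 0 of 156, 0 of 13 and 5 of 179.

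Other factors of the list rose with them. MESP1, a bHLH factor of early mesoderm, had 451, 281, 69.5 and 306 CPM in MEOX1/TCF15 barcodes and 189, 129, 30.2 and 122 in the others (log2 1.22 ± 0.0654 SE, edgeR adjusted p = 4.04e-06). TBX6 had 117, 232, 257 and 170, against 112, 150, 68.8 and 130 in the others (log2 0.79 ± 0.228 SE, edgeR adjusted p = 0.0408), and the call was lost without HH8-HH4 0 hr (log2 0.85, adjusted p = 0.0736) and under DESeq2 (0.73, 0.20). Against MSGN1 mesoderm TBX6 did not pass (log2 0.33, edgeR adjusted p = 0.0905). PRRX1, a homeobox factor of mesenchyme, and PDGFRA, the receptor of PDGF-A, were named after their values were seen, and rose against the others by 1.69 and 1.15 on the log2 scale. PAX3, a paired-box factor of the neural plate border and of somites, was the member that fell (log2 -2.94, edgeR adjusted p = 0.00134). It was rare everywhere, at 0, 0.413, 0.792 and 0.499 CPM in MEOX1/TCF15 barcodes against 2.41, 6.74, 6.02 and 2.19.

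**Figure D2:**
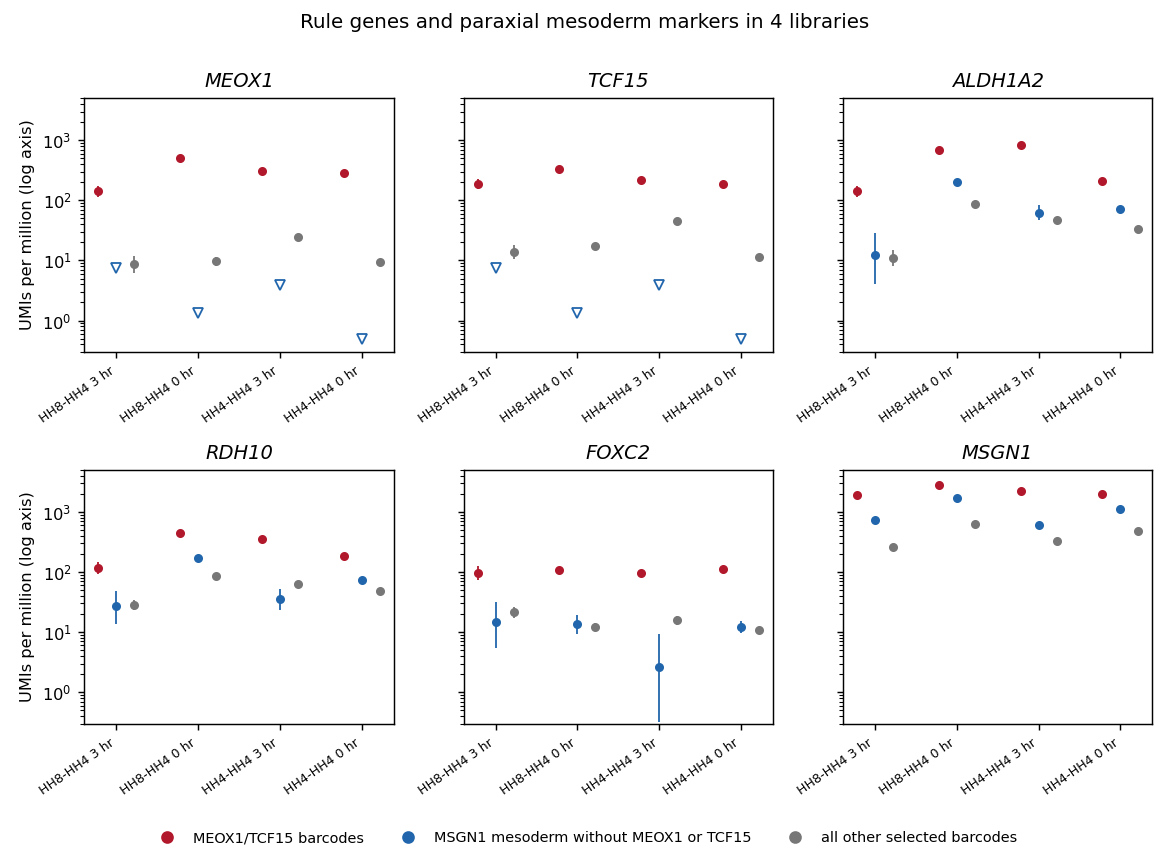
Points give summed CPM, on a log axis, in 4 libraries for the rule genes MEOX1 and TCF15 and for ALDH1A2, RDH10, FOXC2 and MSGN1, in MEOX1/TCF15 barcodes, MSGN1 mesoderm and all other selected barcodes. Bars are exact Poisson intervals at 95%, counting error only, and open triangles mark 0 UMIs at the level of 3 counts. FOXC2 stays between 96.4 and 114 in MEOX1/TCF15 barcodes of all 4 libraries, whereas ALDH1A2 runs between 142 and 838.

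RDH10 and ALDH1A2, the enzymes of retinoic acid synthesis introduced above, rose. ALDH1A2 had 142, 685, 838 and 212 CPM in MEOX1/TCF15 barcodes, against 11.1, 87.7, 46.6 and 33.5 in the others (log2 3.27 ± 0.213 SE, edgeR adjusted p = 1.28e-05). It was the third largest rise among the genes ranked against the others. MSGN1 mesoderm held 12.3, 203, 62.7 and 72.0 (log2 2.10 ± 0.228 SE, edgeR adjusted p = 3.84e-05), and its HH8-HH4 0 hr value overlapped the MEOX1/TCF15 range of the other libraries. RDH10 had 117, 439, 348 and 184 CPM, against 28.6, 86.6, 62.5 and 48.4 in the others (log2 2.20 ± 0.0935 SE, edgeR adjusted p = 1.79e-06) and 27.2, 170, 35.3 and 74.1 in MSGN1 mesoderm (1.65 ± 0.188 SE, edgeR adjusted p = 5.48e-05). Both enzymes were lowest in HH8-HH4 3 hr and highest in the HH8-HH4 0 hr and HH4-HH4 3 hr libraries.

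An ALDH1A2 UMI was present in 60.9%, 85.4%, 92.8% and 64.3% of MEOX1/TCF15 barcodes, in 5.88%, 54.5%, 42.1% and 34.3% of MSGN1 mesoderm barcodes, and in 11.1%, 4.49%, 15.4% and 5.59% of epiblast barcodes. Among barcodes with 5000 or more UMIs, thinned to 5000, the shares were 34.8%, 80.6%, 81.1% and 43.7% in MEOX1/TCF15 barcodes and 0%, 43.5%, 18.8% and 20.6% in MSGN1 mesoderm. The enzyme was thus found in a minority of MSGN1 barcodes without the somite factors at equal depth. The retinoic acid list as a whole had 4 of 10 tested genes higher and 1 lower against the others, with a median log2 difference of 0.33, and 5 higher and 0 lower against MSGN1 mesoderm, with a median of 0.77. ALDH1A3, another retinaldehyde dehydrogenase, was at 0.989 to 4.66 CPM in MEOX1/TCF15 barcodes and did not pass (log2 -0.42, edgeR adjusted p = 0.424). STRA6, the receptor that takes up retinol, was named after its values were seen. It rose by 0.93 ± 0.183 SE against the others and by 1.51 against MSGN1 mesoderm, with 22.5, 54.1, 149 and 23.0 CPM in MEOX1/TCF15 barcodes. CRABP1, a binding protein, was higher by 0.49 (edgeR adjusted p = 0.0238), a call lost without HH4-HH4 0 hr (log2 0.41, adjusted p = 0.12), HH8-HH4 0 hr (0.42, 0.107) or HH8-HH4 3 hr (0.47, 0.0735). RBP5 was lower by 0.22 on the log2 scale (edgeR adjusted p = 0.0188), a call lost without HH8-HH4 0 hr (log2 -0.21, adjusted p = 0.0974) or HH8-HH4 3 hr (-0.22, 0.0563) and against barcodes that pass the exclusions (-0.14, 0.0926), and CYP26A1, which degrades retinoic acid, was at or below 1.61 CPM in MEOX1/TCF15 barcodes and was not tested.

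Notch and segmentation genes changed in both directions. Against the others 5 of 11 tested genes rose and 3 fell, and against MSGN1 mesoderm 3 rose and 3 fell. The ligand DLL1 had 998, 1556, 894 and 1213 CPM in MEOX1/TCF15 barcodes, against 231, 710, 571 and 568 in the others (log2 1.20 ± 0.184 SE, edgeR adjusted p = 0.00209). Against MSGN1 mesoderm its log2 difference was 0.30 ± 0.155 SE (edgeR adjusted p = 0.303). A DLL1 UMI was present in 100%, 100%, 99.1% and 98.5% of MEOX1/TCF15 barcodes, against 59.3%, 65.9%, 96.3% and 67.8% of the others. In epiblast barcodes the shares were 88.9%, 90.4%, 100% and 89.4%. With thinning as for FOXC2 they were 44.4%, 85.5%, 61.5% and 81% in epiblast, against 87%, 100%, 92.8% and 93.9% in MEOX1/TCF15 barcodes. The receptor NOTCH1 rose by 1.11 against the others and 0.46 against MSGN1 mesoderm, and LFNG, which modifies the receptor, by 0.53 against the others. The LFNG call was lost among barcodes at or above 500 CPM of HINTW, a gene of the female W chromosome (log2 0.35, edgeR adjusted p = 0.10), and among those below it (0.60, 0.0934). The target HES4 fell to 127, 80.9, 141 and 70.3 CPM, against 287, 282, 361 and 249 in the others (log2 -1.58 ± 0.0984 SE, edgeR adjusted p = 1.03e-05). HES5, a target prominent in neural tissue, was at 0, 0.826, 3.76 and 0.665 against 7.22, 11.3, 66.6 and 10.6 (log2 -4.14 ± 0.215 SE, edgeR adjusted p = 3.58e-06). PCDH8, an adhesion protein of the presomitic mesoderm, and EFNB2, an ephrin of somite borders, were named after their values were seen, and rose by 2.59 and 1.33 against the others.

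Of 18 tested FGF pathway genes 1 rose and 6 fell against the others, with a median log2 difference of -0.20, and 0 of 16 rose and 7 fell against MSGN1 mesoderm, with a median of -0.27. FGF8, the ligand of the streak and tail, had 153, 121, 196 and 142 CPM in MEOX1/TCF15 barcodes, against 199, 343, 257 and 246 in the others (log2 -0.81 ± 0.153 SE, edgeR adjusted p = 0.00629) and 286, 246, 469 and 174 in MSGN1 mesoderm (log2 -0.83, edgeR adjusted p = 0.000848). The FGF8 ranges overlapped between libraries, and MEOX1/TCF15 barcodes were lower within each. Among barcodes at or above 500 CPM of HINTW the FGF8 call against the others was lost (log2 -0.32, edgeR adjusted p = 0.367). ETV1, a transcription factor that responds to FGF, fell by 0.52 against the others and by 0.94 against MSGN1 mesoderm. ETV5 was lower by 0.35 (edgeR adjusted p = 0.015), a call lost without HH4-HH4 0 hr (log2 -0.28, adjusted p = 0.0998) or HH8-HH4 0 hr (-0.34, 0.0665), and the ligand FGF19 was lower by 0.46 (edgeR adjusted p = 0.0169), lost without the same libraries (log2 -0.45, adjusted p = 0.0587 and -0.33, 0.0715). The gene that rose was FGF3, a ligand (log2 0.51, edgeR adjusted p = 0.0132). Its log2 difference was 0.01 (edgeR adjusted p = 0.978) against barcodes that pass the exclusions and 0.45 (0.0962) without HH4-HH4 0 hr. With 0 eGFP UMIs asked for in all libraries it was 0.33 (0.0716). SPRY2, a feedback inhibitor named after its values were seen, fell by 1.14 against the others and by 1.02 against MSGN1 mesoderm.

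Among WNT genes 6 of 19 rose and 4 fell against the others. WNT11, a ligand of the non-canonical branch, had 25.8, 51.2, 39.0 and 34.1 CPM in MEOX1/TCF15 barcodes, against 3.85, 5.29, 6.39 and 3.98 in the others (log2 2.97 ± 0.162 SE, edgeR adjusted p = 4.32e-06) and 7.41, 7.14, 2.61 and 5.20 in MSGN1 mesoderm (2.79 ± 0.19 SE, edgeR adjusted p = 8.11e-07). The MEOX1/TCF15 values lay above all others. RSPO3, which strengthens canonical signalling, rose by 0.83 against the others but had a log2 difference of 0.10 against MSGN1 mesoderm (edgeR adjusted p = 0.484). WNT8A, a canonical ligand of the streak, had 138, 194, 186 and 106 CPM, against 235, 480, 471 and 262 in MSGN1 mesoderm (log2 -1.25, edgeR adjusted p = 2.59e-07). WNT5B fell by 0.50 against the others, although below 500 CPM of HINTW its log2 difference was -0.12 (edgeR adjusted p = 0.67). TCF7L2, a nuclear effector, fell by 0.53, while LEF1, a nuclear effector of the same family named after its values were seen, rose by 1.12. FZD5, a receptor outside the list, was at 0, 0.826, 0.198 and 1.66 CPM against 8.91, 24.6, 0.614 and 21.4 in the others (log2 -3.91 ± 0.325 SE, edgeR adjusted p = 5.71e-05). APCDD1, an inhibitor of WNT reception also outside it, fell against MSGN1 mesoderm (log2 -2.26 ± 0.213 SE, edgeR adjusted p = 1.20e-05).

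In the BMP and nodal list 2 of 18 genes rose and 6 fell against the others, and 2 of 16 rose and 6 fell against MSGN1 mesoderm. ID4 and MSX1, which respond to BMP, were among the clearest falls. ID4 had 70.8, 53.7, 68.7 and 59.4 CPM in MEOX1/TCF15 barcodes, against 205, 253, 296 and 270 in the others (log2 -2.10 ± 0.0969 SE, edgeR adjusted p = 2.61e-06) and 247, 182, 236 and 228 in MSGN1 mesoderm (-1.84 ± 0.0774 SE, edgeR adjusted p = 8.66e-09). MSX1 had 33.8, 49.1, 40.8 and 32.4, against 122, 255, 284 and 172 in the others (log2 -2.49, edgeR adjusted p = 2.67e-06). Neither gene overlapped between MEOX1/TCF15 barcodes and the others. BMP4, a ligand named after its values were seen, fell by 1.26, and ID2 by 1.08. The BMP target ID1 did not fall, with a log2 difference of 0.19 (edgeR adjusted p = 0.283) from the others. Over MSGN1 mesoderm ID1 rose by 0.30 (edgeR adjusted p = 0.0264) and FST, an antagonist, by 1.07 (0.000297). Both were named after their values were seen. CHRD, a secreted BMP antagonist of the node, was lower by 1.20 against all others (edgeR adjusted p = 5.35e-05), but against the barcodes that pass the exclusions its log2 difference was 0.23 (edgeR adjusted p = 0.583). ACVR2B, an activin receptor, was higher by 0.20 (edgeR adjusted p = 0.031), and this call was lost without HH4-HH4 0 hr (log2 0.22, adjusted p = 0.0781), HH8-HH4 0 hr (0.18, 0.154) or HH8-HH4 3 hr (0.18, 0.0983) and against barcodes that pass the exclusions (-0.05, 0.652).

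**Figure D3:**
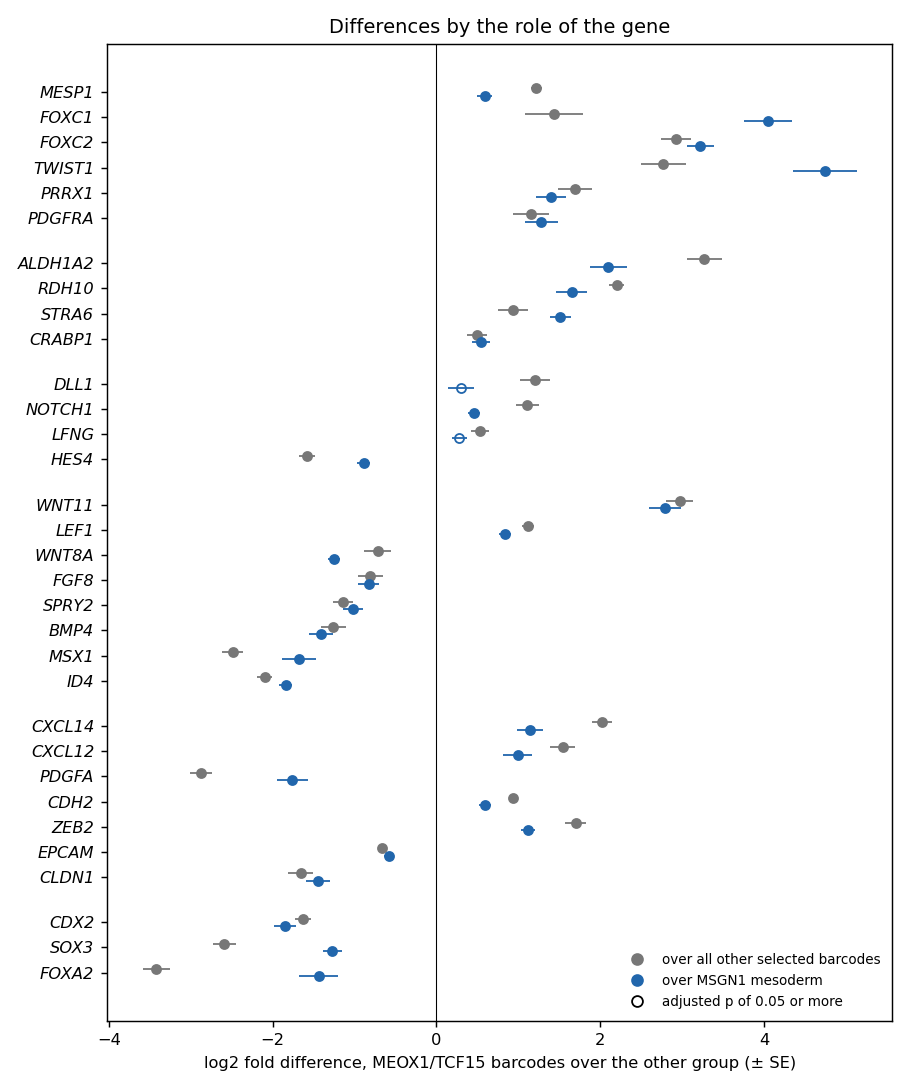
The horizontal axis gives the log2 fold difference of MEOX1/TCF15 barcodes over all other selected barcodes (grey) and over MSGN1 mesoderm (blue), with bars of 1 SE from the edgeR fit over 4 libraries, for genes grouped by role. Open points have an adjusted p of 0.05 or more, as for DLL1 at 0.30 over MSGN1 mesoderm. TWIST1, FOXC1 and FOXC2 lie furthest to the right over MSGN1 mesoderm, at 4.74, 4.05 and 3.22.

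Genes of migration and adhesion changed in both directions. In the migration list 7 of 22 genes rose and 4 fell against the others, and in the adhesion list 7 of 23 rose and 8 fell. CXCL14, a chemokine, had 673, 621, 479 and 829 CPM in MEOX1/TCF15 barcodes, against 124, 207, 96.0 and 225 in the others (log2 2.02 ± 0.118 SE, edgeR adjusted p = 7.10e-06). PDGFA, the ligand of PDGFRA, fell to 3.22, 6.61, 14.8 and 5.16 CPM, against 24.1, 48.6, 120 and 30.9 in the others (log2 -2.88 ± 0.135 SE, edgeR adjusted p = 2.67e-06). The receptor was thus high where its ligand was low. EPHA1, a receptor for ephrins, fell by 1.16. CXCR4, a chemokine receptor, was lower by 1.70 against all others (edgeR adjusted p = 0.00258), with a log2 difference of 0.33 (edgeR adjusted p = 0.284) against barcodes that pass the exclusions.

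N-cadherin (CDH2) had 1619, 1748, 1632 and 1413 CPM in MEOX1/TCF15 barcodes, against 840, 961, 805 and 722 in the others (log2 0.93 ± 0.0455 SE, edgeR adjusted p = 2.67e-06) and 815, 1288, 1214 and 919 in MSGN1 mesoderm (log2 0.59, edgeR adjusted p = 7.35e-05). EPCAM, an epithelial adhesion protein, fell by 0.66 against the others and 0.58 against MSGN1 mesoderm. The following genes were named after their values were seen. CLDN1, of tight junctions, and CDH11, a mesenchymal cadherin, fell by 1.66 and 1.55 against the others, and ZEB1 and ZEB2, repressors of the epithelial state, rose by 1.30 and 1.70. COL1A2, a collagen chain, was higher by 0.34 against all others (edgeR adjusted p = 0.00383), and stood at -0.06 (edgeR adjusted p = 0.561) against barcodes that pass the exclusions. TMSB4X, which binds actin monomers, was higher by 0.27 (edgeR adjusted p = 0.0384), a call lost without HH4-HH4 0 hr (log2 0.20, adjusted p = 0.123), HH4-HH4 3 hr (0.26, 0.0662) or HH8-HH4 0 hr (0.24, 0.143).

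In the HOX and CDX list 1 of 15 tested genes rose and 6 fell against the others, and 0 of 14 rose and 5 fell against MSGN1 mesoderm. CDX2 had 54.7, 106, 333 and 40.4 CPM in MEOX1/TCF15 barcodes, against 116, 332, 921 and 154 in the others (log2 -1.63 ± 0.0941 SE, edgeR adjusted p = 6.87e-06) and 146, 449, 838 and 209 in MSGN1 mesoderm (-1.85 ± 0.14 SE, edgeR adjusted p = 2.19e-06). Its level differed more between libraries than between groups, and the HH4-HH4 3 hr library was highest in each group. The gene that rose was HOXA3, with 0, 4.96, 7.92 and 1.66 CPM against 0, 2.10, 3.44 and 0.404 in the others (log2 1.37, edgeR adjusted p = 0.0267). Its call was lost against barcodes that pass the exclusions (log2 0.78, adjusted p = 0.182), under DESeq2 (1.49, 0.0539), and without HH4-HH4 0 hr (1.18, 0.0893), HH4-HH4 3 hr (1.57, 0.0594) or HH8-HH4 0 hr (1.46, 0.104). CDX1 fell by 1.55 and CDX4 by 0.58 against the others. HOXB1, an anterior HOX gene, was at 343, 460, 623 and 246 CPM, against 174, 302, 653 and 169 in the others, and did not pass (log2 0.46, edgeR adjusted p = 0.0528). HOXB8 rested on HH4-HH4 3 hr, with 32.7 CPM in MEOX1/TCF15 barcodes and 111 in the others, and without that library its log2 difference was -0.32 (edgeR adjusted p = 0.548) in place of -1.29 (0.0179).

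HOXA7 was at 14.5, 22.3, 0.198 and 0 CPM in MEOX1/TCF15 barcodes, and at 21.2, 24.9, 3.32 and 0.0577 in the others. It was present in the HH8-HH4 libraries, whose barcodes were taken for eGFP-free HH4 hosts, and near or at 0 in HH4-HH4. The source of this HOXA7 signal was not tested. Of the 8 tested genes listed for HH8 grafts 0 rose and 5 fell. Leaving out HH8-HH4 barcodes with a HOXA7 or HOXB8 UMI gave 369 higher and 367 lower genes against the others.

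**Figure D4:**
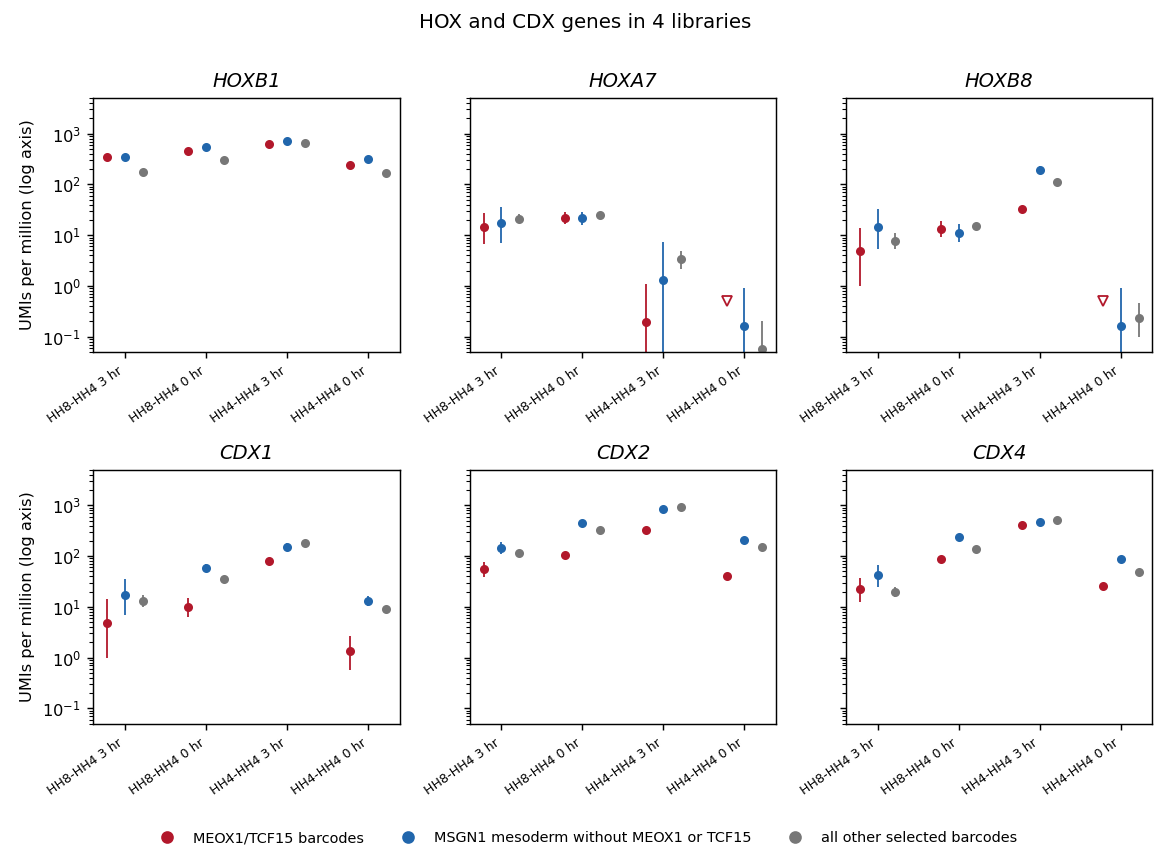
Points give summed CPM, on a log axis, of 3 HOX and 3 CDX genes in MEOX1/TCF15 barcodes, MSGN1 mesoderm and all other selected barcodes of 4 libraries, with exact 95% Poisson intervals and open triangles for 0 UMIs drawn at the level of 3 counts. HOXA7 separates the HH8-HH4 libraries (14.5 and 22.3 in MEOX1/TCF15 barcodes) from HH4-HH4 (0.198 and 0). CDX2 lies lower in MEOX1/TCF15 barcodes than in both other groups of each library.

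Markers of other cell types were mostly lower. Of 16 tested epiblast and neural genes 0 rose and 14 fell against the others, and their summed level was 1036 to 1369 CPM in MEOX1/TCF15 barcodes against 1794 to 2524. SOX3 had 20.9, 35.5, 18.8 and 32.3 CPM, against 114, 190, 157 and 164 (log2 -2.59 ± 0.138 SE, edgeR adjusted p = 4.04e-06), and 1, 4, 6 and 11 MEOX1/TCF15 barcodes held 3 or more SOX3 UMIs. Of 9 streak genes 0 rose and 5 fell against the others, and 0 rose and 8 fell against MSGN1 mesoderm. Brachyury (T) was at 2070, 1323, 868 and 1812 CPM, against 2143, 2488, 1955 and 2789 in MSGN1 mesoderm (log2 -0.71, edgeR adjusted p = 0.00126), so transcripts of this streak gene were still abundant. Of 9 node and notochord genes 5 fell, and FOXA2 had 16.1, 5.78, 5.94 and 6.82 CPM against 141, 95.2, 39.6 and 85.4 (log2 -3.42, edgeR adjusted p = 2.67e-06), or -1.52 (edgeR adjusted p = 0.0014) against barcodes that pass the exclusions. EOMES, a T-box factor of the streak and endoderm, fell by 2.16, and SOX2, a neural factor, was at 0.166 to 3.22 CPM against 1.44 to 19.9. SHH was lower by 3.41 and did not pass there (log2 -1.48, edgeR adjusted p = 0.106). NOTO fell by 3.43, and its neighbour GNOT2, a near-identical gene that the rule uses, may share its reads.

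The endoderm list fell against all others, with 6 of 7 tested genes lower, a direction that the SOX17 and CER1 limits help to set. APOA1, a lipoprotein component, was lower by 0.80 against all others (edgeR adjusted p = 0.0259) but higher by 1.06 against barcodes that pass the exclusions (edgeR adjusted p = 0.00133) and by 1.25 against MSGN1 mesoderm (edgeR adjusted p = 5.21e-05). Without HH8-HH4 0 hr or HH8-HH4 3 hr its difference from all others was -0.54 (edgeR adjusted p = 0.0663) or -0.73 (0.0871). GATA6, a factor of endoderm and of cardiac and lateral mesoderm, behaved the same way. It had 27.4, 5.78, 19.0 and 32.9 CPM in MEOX1/TCF15 barcodes, 60.4, 92.6, 22.4 and 71.9 in all others, and 46.9, 2.68, 2.61 and 7.15 in MSGN1 mesoderm. Its log2 difference was -1.40 from all others (edgeR adjusted p = 0.0379), a call lost without HH4-HH4 0 hr (log2 -1.60, adjusted p = 0.0587), without HH8-HH4 3 hr (-1.43, 0.0987) and under DESeq2 (-1.54, 0.15), but 1.16 from barcodes that pass the exclusions (edgeR adjusted p = 0.0121) and 1.59 from MSGN1 mesoderm (edgeR adjusted p = 0.0147). Of 9 tested lateral, intermediate and cardiac genes 2 rose and 3 fell against the others, with HAND2 at 0 to 0.198 CPM, and LHX1, a factor of intermediate mesoderm and of the node region, did not pass (log2 -0.63, edgeR adjusted p = 0.457). Blood and endothelium markers had 2 of 4 tested genes higher, KDR (log2 1.99) and LMO2 (1.13), which are also expressed in early mesoderm. Their summed level was 91.4 to 129 CPM against 46.7 to 70.1, CDH5 was at 0 in MEOX1/TCF15 barcodes, and HBE, the most abundant globin there, was at 4.54 to 8.48.

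The largest rises outside the gene lists were LBX2, LOC425362, CMKLR1, CXCL13L3, PTN, OLIG2 and RND2. LBX2, a ladybird homeobox factor, had 6.44, 23.9, 138 and 14.3 CPM in MEOX1/TCF15 barcodes, against 3.37, 1.09, 6.02 and 0.606 in the others (log2 4.19 ± 0.334 SE, edgeR adjusted p = 4.41e-05) and 0, 0.446, 2.61 and 0.487 in MSGN1 mesoderm (5.30 ± 0.274 SE, edgeR adjusted p = 6.58e-08). It was the largest rise in both rankings, and HH4-HH4 3 hr held its highest level. PTN, the growth factor pleiotrophin, was abundant, with 127, 424, 1190 and 155 CPM against 24.8, 59.1, 101 and 33.1 in the others (log2 2.80 ± 0.187 SE, edgeR adjusted p = 1.40e-05). OLIG2, a bHLH factor known from the spinal cord, had 45.1, 50.0, 6.33 and 29.6, against 2.41, 7.83, 2.33 and 3.72 (log2 2.80 ± 0.29 SE, edgeR adjusted p = 0.000212), and unlike LBX2 was lowest in HH4-HH4 3 hr. RND2, a small GTPase, was steady at 10.5 to 12.3 CPM in MEOX1/TCF15 barcodes against 1.11 to 2.14. CMKLR1, the chemerin receptor, CXCL13L3, a chemokine-like gene, and LOC425362 stayed at or below 23.9 CPM in every library.

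Further large falls were those of SLURP1, PLEK2, LOC395991, ASTL and RBP4A. For SLURP1, PLEK2 and RBP4A there was no value against barcodes that pass the exclusions. The part of the exclusions in their falls was not tested. SLURP1 had 0 UMIs in MEOX1/TCF15 barcodes of all libraries and 113 in the others, which is at least 8.75-fold lower when 3 counts over the group are taken as the floor. PLEK2 was at 0.413 CPM in HH8-HH4 0 hr and 0 elsewhere, against 1.20 to 6.64 in the others. LOC395991 fell by 4.26 against all others and stood at -0.43 (edgeR adjusted p = 0.438) against barcodes that pass the exclusions. ASTL, an astacin-like protease, had 8.05, 2.89, 0.989 and 2.83 CPM, against 19.0, 105, 5.90 and 27.2 (log2 -3.63, edgeR adjusted p = 0.000217). RBP4A, a retinol carrier, was at 0 to 0.499 against 3.07 to 6.23.

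Against MSGN1 mesoderm the further named rises were CD8BP, MDGA1, POMC, OLIG2 and SST, and the further falls EDNRB, SP8, FOXD3, LITAF, PDGFA and F2RL1. EDNRB, an endothelin receptor, was at 9.66, 8.67, 14.2 and 8.65 CPM in MEOX1/TCF15 barcodes, against 37.0, 64.3, 77.0 and 54.8 in MSGN1 mesoderm (log2 -2.59 ± 0.144 SE, edgeR adjusted p = 1.15e-07). SP8, a zinc finger factor of the streak, was at 12.9, 5.37, 11.9 and 1.5, against 37.0, 30.4, 45.7 and 14.5 (log2 -2.32, edgeR adjusted p = 2.40e-05). FOXD3, a forkhead factor of pluripotent and neural crest cells, had 29.0, 4.54, 4.75 and 15.1, against 84.0, 16.5, 23.5 and 81.7 (log2 -2.22, edgeR adjusted p = 1.96e-06). Each of these genes was lower in MEOX1/TCF15 barcodes of all 4 libraries. MDGA1, a membrane-anchored adhesion protein, was steady at 16.1 to 20.9 CPM against 0 to 4.94.

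Of 18 cell cycle genes 6 rose and 1 fell against the others, with a median log2 difference of 0.19. HMGB2 rose by 0.34, TOP2A by 0.28 and CENPF by 0.33 (CENPF was at 0.13, edgeR adjusted p = 0.381, against barcodes that pass the exclusions), while CCNB1 was higher by 0.20 (edgeR adjusted p = 0.0183), a call lost without HH4-HH4 0 hr (log2 0.21, adjusted p = 0.0691), HH8-HH4 0 hr (0.20, 0.094) or HH8-HH4 3 hr (0.19, 0.0622). Against MSGN1 mesoderm 1 of 18 cell cycle genes rose and 1 fell, with a median of 0.09. HMGB2 (log2 0.16, edgeR adjusted p = 0.0655), TOP2A (0.09, 0.314), CENPF (-0.05, 0.752) and CCNB1 (0.17, 0.112) did not pass there. Of 10 stress genes 1 rose and 4 fell against the others, and the immediate early genes FOS and JUN fell by 0.98 and 0.95. EGR1, of the same kind, was lower by 0.74 (edgeR adjusted p = 0.00837), a call lost without HH8-HH4 0 hr (log2 -0.62, adjusted p = 0.0526).

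The comparison with the others was repeated among barcodes at or above 500 CPM of HINTW and among those below it, since the groups differed in the share of such barcodes. Beside the genes given above, the calls lost at or above that level included FGF19 (log2 -0.25, edgeR adjusted p = 0.36), CHRD (-0.42, 0.254), SHH (-1.61, 0.262), HOXB8 (-0.03, 0.994), APOA1 (-0.27, 0.177), CENPF (0.05, 0.78), CCNB1 (0.11, 0.471) and HMGB2 (0.23, 0.0629). TOP2A (log2 0.20, edgeR adjusted p = 0.138), CRABP1 (0.48, 0.0516), RBP5 (-0.26, 0.0659) and GATA6 (0.50, 0.372) lost theirs there too. Below it they included FOXC1 (log2 1.11, edgeR adjusted p = 0.236), TBX6 (0.73, 0.0765), PDGFRA (0.97, 0.0859), STRA6 (0.80, 0.0692), APOA1 (-0.86, 0.155) and RBP4A (-3.31, 0.0734). SST (log2 0.75, edgeR adjusted p = 0.234) and WNT8A (-0.66, 0.106) lost theirs below it as well. The WNT8A call was also lost under DESeq2 (log2 -0.63, adjusted p = 0.137). COL1A2, TMSB4X, ACVR2B, HOXA3 and FGF3 lost theirs on both sides. Each repeat holds fewer barcodes than the whole.

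The MEOX1/TCF15 barcodes were then split at the median MSGN1 level of each library, 2105, 2755, 2263 and 1920 CPM, into 389 MSGN1-high and 393 MSGN1-low barcodes. Of 4227 tested genes 52 were higher in MSGN1-high barcodes (1.23%) and 74 lower (1.75%). Without HH4-HH4 3 hr these counts were 16 and 34, and without HH4-HH4 0 hr 29 and 50. MEOX1 and TCF15 fixed the membership and are given as values. MEOX1 was at 142, 414, 288 and 234 CPM in MSGN1-high barcodes and 141, 604, 321 and 325 in MSGN1-low barcodes, and TCF15 at 214, 294, 234 and 190 against 170, 357, 207 and 191. Median depth was 19727, 8718, 40651 and 14076 UMIs in MSGN1-high barcodes and 29402, 9375, 41235 and 14211 in MSGN1-low barcodes.

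ALDH1A2 followed MSGN1. It had 218, 789, 1134 and 325 CPM in MSGN1-high barcodes and 94.2, 592, 562 and 101 in MSGN1-low barcodes (log2 1.01 ± 0.146 SE, edgeR adjusted p = 0.00104). WIF1, a secreted WNT inhibitor, had 8.37, 37.4, 63.5 and 12.5 against 2.62, 13.4, 23.7 and 3.29 (log2 1.51 ± 0.183 SE, edgeR adjusted p = 0.000354), and B4GALT1, a galactosyltransferase, rose by 0.77 ± 0.104 SE (edgeR adjusted p = 0.000656). CHIC1 rose by 0.83 as well. These genes were higher in MSGN1-high barcodes of all 4 libraries. Of the other named rises HIC1, ADGRG6 and OPRL1 lost the call without HH4-HH4 3 hr (log2 0.73, 1.15 and 0.62, edgeR adjusted p = 0.0774, 0.0906 and 0.327), and OLIG2 without HH8-HH4 0 hr (0.83, 0.0638). OPRL1 lost it too without HH8-HH4 0 hr (0.76, 0.111) and HH8-HH4 3 hr (0.84, 0.0846). SOCS2 and MAB21L2 lost it without HH4-HH4 0 hr (0.82, 0.0685 and 0.68, 0.0832), HH4-HH4 3 hr (1.35, 0.0839 and 1.15, 0.0916) or HH8-HH4 3 hr (1.22, 0.0593 and 0.94, 0.11). In hosts alone the call was lost for ADGRG6 (0.83, 0.0829), SOCS2 (0.58, 0.427), MAB21L2 (0.47, 0.342) and OPRL1 (0.70, 0.131). Under DESeq2 it was lost for SOCS2 (1.16, 0.0993) and OPRL1 (0.82, 0.315). FOXC2 did not pass between the MSGN1 groups (log2 -0.34, edgeR adjusted p = 0.219).

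The genes lower in MSGN1-high barcodes, that is, higher where MSGN1 was low, included TWIST1, GATA6, HHEX, NPBWR1, NEUROG2, AREG and SFRP1. TWIST1 had 0, 2.61, 3.69 and 4.72 CPM in MSGN1-high barcodes and 20.9, 12.6, 55.5 and 33.9 in MSGN1-low barcodes (log2 -3.26 ± 0.269 SE, edgeR adjusted p = 1.46e-05). GATA6 had 4.19, 1.74, 1.64 and 8.42 against 41.9, 9.44, 35.2 and 56.9 (log2 -3.11 ± 0.261 SE, edgeR adjusted p = 1.46e-05). Neither gene overlapped between the groups. SFRP1, a secreted WNT antagonist, had 37.7, 18.3, 4.10 and 45.1 against 131, 46.4, 40.9 and 138 (log2 -1.83 ± 0.201 SE, edgeR adjusted p = 0.000154). MESP1 followed the same direction (log2 -0.80, edgeR adjusted p = 3.69e-05). HHEX, a homeobox factor of endoderm, and NEUROG2, a proneural bHLH factor, fell by 3.06 and 2.63. Of 6 tested endoderm markers 4 were lower in MSGN1-high barcodes and 0 higher, against 1.75% lower over all tested genes. Of 5 tested node and notochord markers 4 were lower and 0 higher. Named after their values were seen, CHRD was lower by 1.34, FOXA2 by 1.75, NOTO by 1.38 and GATA5 by 2.39. The MSGN1-low barcodes were thus also higher in node and endoderm genes. MIXL1, a homeobox factor of the streak, was lower by 2.33. Its call was lost without HH8-HH4 3 hr (log2 -2.16, adjusted p = 0.0971) and under DESeq2 (-2.36, 0.221). LOC395991 was lower by 2.15, a call lost without HH4-HH4 0 hr (-3.41, 0.0685), HH4-HH4 3 hr (-1.71, 0.0908) or HH8-HH4 3 hr (-2.32, 0.083). The LOC395991 call was lost too in hosts alone (-2.22, 0.12) and under DESeq2 (-2.57, 0.0993).

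**Figure D5:**
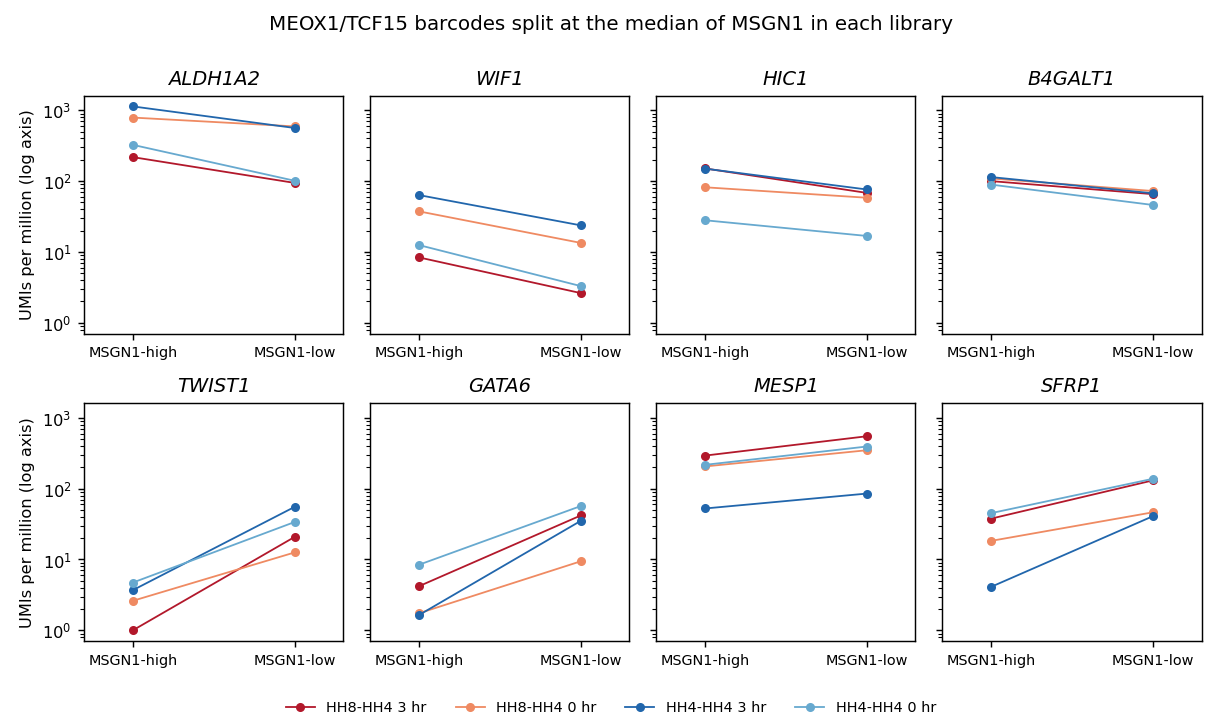
Each line joins the summed CPM (log axis) of 1 library in MSGN1-high and MSGN1-low MEOX1/TCF15 barcodes, for 4 genes higher (upper row) and 4 genes lower (lower row) in MSGN1-high barcodes. The TWIST1 value of 0 in HH8-HH4 3 hr is drawn at 1. All lines of a panel run the same way. In HH4-HH4 3 hr ALDH1A2 was at 1134 in MSGN1-high and 562 in MSGN1-low barcodes, and TWIST1 at 3.69 and 55.5.

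TWIST1 thus marked a small fraction of MSGN1-low cells, and the 68 MEOX1/TCF15 barcodes with a TWIST1 UMI were set beside the 714 without, as a description chosen after the values were seen. MSGN1 was at 1448, 1487, 1321 and 1109 CPM in the barcodes with TWIST1, against 1987, 2863, 2488 and 2037 in those without. FOXC2 was at 230, 212, 165 and 180 against 83.2, 100, 80.3 and 108, and LBX2 at 53.0, 151, 237 and 74.5 against 1.77, 15.8, 115 and 9.04. ALDH1A2 showed no common direction, with 177, 507, 751 and 135 against 138, 697, 859 and 219. A GATA6 UMI was found in 38.1% and 37.5% of the TWIST1 barcodes of HH4-HH4 3 hr and HH4-HH4 0 hr, against 10.0% and 21.5% of those without TWIST1. These barcodes had median depths of 28314, 10706, 38683 and 13694 UMIs against 22712, 8996, 41703 and 14206.

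In the HH4-HH4 libraries donor cells can be told by eGFP. MEOX1/TCF15 barcodes made up 46.7% of 92 eGFP-positive and 37.6% of 181 eGFP-negative barcodes at 3 hr (exact 95% intervals 36.3 to 57.4% and 30.5 to 45.1%), and 19.5% of 934 and 12.1% of 1764 at 0 hr (17.0 to 22.2% and 10.6 to 13.7%). At 0 hr the intervals did not meet, for counting error only. TWIST1 was at 61.6 and 33.5 CPM in eGFP-positive MEOX1/TCF15 barcodes at 3 hr and 0 hr, against 9.31 and 7.41 in eGFP-negative ones. MSGN1 was at 1692 and 1571 against 2657 and 2298. GATA6 was at 45.0 and 34.6 against 1.33 and 31.5, and NPBWR1 at 66.0 and 44.7 against 0.997 and 28.4. At 3 hr 14 of 43 eGFP-positive and 3 of 68 eGFP-negative MEOX1/TCF15 barcodes held a GATA6 UMI. The MSGN1-high and MSGN1-low groups mix donor and host barcodes of these libraries. The part of donor and host in that split was not tested beyond repeating it in hosts alone. The barcodes with and without eGFP also differed in HINTW, the W chromosome gene, far more at 0 hr than at 3 hr. At 0 hr 79.1% of eGFP-positive and 22.5% of eGFP-negative MEOX1/TCF15 barcodes carried 500 or more CPM of HINTW, and at 3 hr 46.5% and 38.2%, and the part of sex in the other values was not tested.

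Between 3 hr and 0 hr the MEOX1/TCF15 barcodes themselves were compared with 2 libraries at each time and graft type as a covariate, which leaves 1 residual degree of freedom. Of 4401 tested genes 0 were higher at 3 hr (0%) and 1 lower (0.0227%), while 303 had an unadjusted p under 0.05 and DESeq2 called 7. The 1 gene was LOC100857579, with 6.44 and 13.3 CPM at 3 hr against 73.1 and 53.4 at 0 hr. It is listed in RefSeq as HINTWL2 on chromosome W, one of a family of near-identical copies among which reads may be divided, and its sum depends on how many cells of a pool are female. The call was lost in hosts alone (log2 -2.10, edgeR adjusted p = 0.998), without deep barcodes (-2.43, 0.792) and without HOXA7 or HOXB8 barcodes (-2.50, 0.926), and the 7 DESeq2 calls did not include it. For the markers the fit gave log2 differences of -0.00 ± 0.668 SE for ALDH1A2, -0.37 ± 0.434 for RDH10 and -0.18 ± 0.206 for FOXC2, intervals that a design of this size leaves wide. The ALDH1A2 value averages opposite changes in the graft types. From 0 hr to 3 hr ALDH1A2 went from 685 to 142 CPM in HH8-HH4 and from 212 to 838 in HH4-HH4. RDH10 likewise was lower at 3 hr in HH8-HH4 and higher at 3 hr in HH4-HH4.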

How the data were processed

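Dissociated tissue of pooled chicken grafts was profiled by 10x 3′ single-cell sequencing. The deposited values are UMI counts per gene and barcode, made by the authors with Cell Ranger 6.1.1 against galGal6, and no cell filter beyond the rule was applied here. No doublet caller was run and doublets were left in (an alternative drops deep barcodes). The second HH4-HH4 0 hr library shares 2755 barcodes with the first, whose genes could not be named here, so only the second was used. The other libraries share 0 to 2 barcodes with each other.

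The cells, gene lists and tests were chosen with earlier results of these data known. Counts were summed per library over 6939 genes present in all 4 libraries and tested with edgeR 4.0.16 (quasi-likelihood, TMM, low-count filter, library block), with DESeq2 1.42.0 as an alternative, and the scripts were tested on simulated data. Genes of the rule were not tested. CPM are sums per 1000000 UMIs of the group. Genes were named where they ranked among the 10 strongest called rises or the 10 strongest called falls of a comparison (at least 100 UMIs, same direction in every library), as up to 4 called genes of each list with the most UMIs, and as a fixed set of markers. Others are said to be named after their values were seen. Shares carry exact Clopper-Pearson intervals at 95%. SNAI2 is not in the HH4-HH4 3 hr table used and was not tested. The other alternatives were a different filter, leaving out each library, deeper barcodes, host cells alone, and barcodes split by HINTW. Total depth was 8970436, 37263719, 13218478 and 40735693 UMIs, in 943, 4038, 301 and 2757 barcodes, of which 534, 73, 28 and 59 had fewer than 2000 UMIs. From the HH8-HH4 libraries 177 and 2239 barcodes with eGFP were left out. A result that names a withheld item is not reported here.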

Additional observations from a re-analysis of the deposited data

Results flagged for a closer look

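HINTW differed between MEOX1/TCF15 barcodes and the others in opposite directions at 3 hr and at 0 hr. The log2 ratio of MEOX1/TCF15 barcodes over the others was -0.67 in HH8-HH4 3 hr, 0.36 in HH8-HH4 0 hr, -0.54 in HH4-HH4 3 hr and 0.72 in HH4-HH4 0 hr, and the interaction of group and time gave a log2 value of -1.20 ± 0.113 SE (edgeR adjusted p = 0.0413). It was the only gene of 4675 called in that test, and 485 had an unadjusted p under 0.05. The share of barcodes with 500 or more CPM of HINTW was 17.4%, 55.7%, 41.4% and 48.6% in MEOX1/TCF15 barcodes and 37.3%, 43.1%, 59.9% and 28.6% in the others. MEOX1/TCF15 barcodes had the lower share in both 3 hr libraries and the higher share in both 0 hr libraries. The part of this in the comparisons was not tested beyond repeating them within barcodes above and below that HINTW level.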

How the results depend on the processing

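Against all others the counts of 428 higher and 412 lower genes stayed within 1.5 times under DESeq2 (370 and 355), no filter (424 and 449), hosts alone (429 and 419), barcodes of 10000 or more UMIs (404 and 377) and the other settings not named next. They moved to 270 and 262 in barcodes at or above 500 CPM of HINTW, 273 and 255 below it, and 115 and 94 without the library block, and leaving out 1 library gave 267 to 430 and 244 to 445. Against MSGN1 mesoderm 234 and 200 became 126 and 118 under DESeq2, 121 and 110 at or above and 129 and 110 below that HINTW level, 26 and 18 without the block, and 126 to 238 and 105 to 217 without 1 library. Between MSGN1 groups 52 and 74 became 30 and 36 under DESeq2, 25 and 47 in hosts alone, and 16 to 47 and 34 to 69 without 1 library. Between 3 hr and 0 hr, 0 and 1 became 7 and 0 under DESeq2 and 52 and 25 with no filter, and the 1 lower gene became 0 in hosts alone, without deep barcodes and without HOXA7 or HOXB8 barcodes. Reversals occurred in 7 genes with the others limited to barcodes that pass the exclusions, at log2 values of 0.23 for CHRD, -0.05 for ACVR2B, 0.33 for CXCR4, -0.06 for COL1A2, 1.16 for GATA6, 0.84 for GATA5 and 1.06 for APOA1, and GATA6 reached 0.50 in barcodes at or above the HINTW level. ALDH1A3, not called, reached 0.10 at or above that level and 0.00 to 0.20 against MSGN1 mesoderm without HH4-HH4 3 hr, HH8-HH4 0 hr or HH8-HH4 3 hr. The cause was not tested. The share of 15.9% over all libraries became 20.6% at 2 UMIs, 10.1% at 5 UMIs, 13.1% after thinning, 17.4% in barcodes of 10000 or more UMIs and 14.3% in hosts alone. Leaving out a library was not possible between times, and the share by the first HH4-HH4 0 hr library was not run. The settings without HOXA7 or HOXB8 barcodes and with the limited others were added after seeing the data. No paired analysis was possible because no groups from different libraries share 2 replicate numbers, and groups of the same library were already blocked by library. Depth limits genes under about 3 counts in a group, as in the 23 barcodes of HH8-HH4 3 hr.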

Other observations

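POMC, SST, AGRP and NPY, which encode neuropeptides, were higher in MEOX1/TCF15 barcodes and GAL, which encodes galanin, was lower. POMC and SST were named by the rule for genes, AGRP, NPY and GAL were chosen after their values were seen, and no list of neuropeptide genes was tested. AGRP, which antagonises melanocortin receptors, had 1959, 2306, 786 and 2157 CPM in MEOX1/TCF15 barcodes, 1007, 804, 167 and 942 in MSGN1 mesoderm and 320, 434, 140 and 498 in all others. Its log2 difference was 2.38 (edgeR adjusted p = 2.66e-07) from all others and 1.41 (edgeR adjusted p = 7.56e-06) from MSGN1 mesoderm. POMC, the precursor of melanocortin peptides, had 105, 153, 78.6 and 214, against 12.3, 28.1, 5.22 and 50.4 in MSGN1 mesoderm (log2 2.33 ± 0.141 SE, edgeR adjusted p = 2.59e-07). NPY had 91.7, 71.0, 72.6 and 80.5, against 27.2, 20.5, 7.83 and 34.3 (log2 1.60, edgeR adjusted p = 4.45e-05). SST, encoding somatostatin, had 12.9, 40.1, 31.3 and 37.6, against 9.88, 6.70, 3.92 and 9.59 (log2 2.14 ± 0.206 SE, edgeR adjusted p = 1.35e-05). GAL had 4.83, 7.02, 2.37 and 3.83, against 12.3, 12.1, 11.8 and 9.59 in MSGN1 mesoderm (log2 -1.31, edgeR adjusted p = 0.0104) and 9.87, 15.5, 22.1 and 11.9 in all others (-1.94, edgeR adjusted p = 0.00334), and the call against MSGN1 mesoderm was lost without HH4-HH4 0 hr (log2 -1.34, adjusted p = 0.107). The GAL call against MSGN1 mesoderm was also lost in hosts alone (log2 -1.03, adjusted p = 0.0583). Against all others SST lost its call without HH4-HH4 0 hr (log2 0.97, adjusted p = 0.0748) or HH8-HH4 0 hr (0.88, 0.0813).

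NPBWR1, a neuropeptide receptor gene, had the largest fall among the genes named between MSGN1-high and MSGN1-low barcodes, with 8.37, 0, 0.82 and 8.09 CPM in MSGN1-high barcodes and 15.7, 18.9, 52.0 and 63.1 in MSGN1-low barcodes (log2 -3.61 ± 0.353 SE, edgeR adjusted p = 5.80e-05).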
